A study of Mus musculus with 139 samples.

Results

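The mitochondrial genome of the mouse carries 37 annotated genes, of which 13 encode proteins, 2 encode ribosomal RNAs and 22 encode transfer RNAs. They were chosen as all lines of the count table whose Ensembl identifier belongs to a symbol that starts with mt-, which gave 37 of 55335 lines. The counts come from 139 hair cells, sequenced singly, of mouse cochleae at postnatal days 14 to 16. Cells are named by their number within the group. The groups were outer hair cells (OHCs) and inner hair cells (IHCs) from each of 3 regions of the cochlear spiral, with 21 apical OHCs and 34 apical IHCs, 23 middle OHCs and 34 middle IHCs, and 8 basal OHCs and 19 basal IHCs. The labels give no strain, genotype, treatment or animal, so the cells of a group counted as 1 sample, each group was described by its pooled counts and by the spread of its cells, and no test between groups was made. Apical IHC cells 21 and 22 have the titles A_i_17_2 and A_i_17, which share the number 17. The labels do not say whether they are 2 cells or 1 cell sequenced again. They had 3478864 and 103101 counts and a correlation across genes of 0.21 (Pearson, log2 of CPM + 1), against a median of 0.42 over all 561 pairs of apical IHCs, and were counted as 2. With depths this unequal, the correlation does not settle the question. The titles of all cells carry a number, which is above 100 for 58 cells and at most 100 for 81, and both kinds occur in every group. What that number marks is not given, and it is used below only to split the cells.

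Mitochondria make most of the ATP of a cell through the respiratory chain. The mitochondrial genome supplies only core subunits of that chain: the Nd genes belong to complex I, which takes electrons from NADH, Cytb to complex III, the Co genes to complex IV (cytochrome c oxidase), which passes electrons to oxygen, and the Atp genes to the ATP synthase. Both strands are transcribed as long precursors that are cut at the transfer RNAs, and the ribosomal and transfer RNAs serve the translation of these few messages inside the organelle. Hair cells transduce sound continuously, and mitochondrial variants, including ones in the small ribosomal RNA, are a known cause of hearing loss in humans.

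The cells held between 71027 and 13576942 counts each, 705244075 in all, of which 26982038 (3.83%) fell on the mitochondrial genes. Of the markers used to check the labels, Otof, the calcium sensor of IHC transmitter release, reached 10 CPM (counts scaled to the depth of the cell or group) in 12 of 21 apical OHCs and 31 of 34 apical IHCs, in 5 of 23 middle OHCs and 32 of 34 middle IHCs, and in 0 of 8 basal OHCs and 18 of 19 basal IHCs. Slc17a8, the vesicular glutamate transporter of IHCs, pooled to at most 4.25 CPM in the OHC groups and to at least 447 CPM in the IHC groups. Ocm, the calcium-binding protein oncomodulin, pooled to 3101 CPM in basal OHCs, but 95% of those counts came from 1 cell, and Slc26a5, the OHC motor protein prestin, pooled there to 24.1 CPM with 98.7% from 1 cell. Ocm reached 10 CPM in 21 of 21 apical, 16 of 23 middle and 5 of 8 basal OHCs, and Slc26a5 in 14, 9 and 1 of them. Among OHCs with title numbers above 100, Slc26a5 did so in 12 of 12 apical, 7 of 7 middle and 0 of 2 basal cells. Among OHCs numbered up to 100 it did so in 2 of 9, 2 of 16 and 1 of 6. OHC markers were also found in IHCs: Ocm reached 10 CPM in 23 of 34 apical, 12 of 34 middle and 1 of 19 basal IHCs, and Slc26a5 in 9, 2 and 0 of them. In 9 of 139 cells the summed markers of the labelled type were not higher than those of the other type. All 10 connective tissue markers and all 10 blood and immune markers had reads in every group, and their summed levels had medians over cells of 13473 and 6713 CPM in basal OHCs, against 3545 and 885 CPM in basal IHCs. All 10 neuron and glia markers also had reads in every group, with a summed median of 9502 CPM in basal OHCs and 2710.5 CPM in basal IHCs, and 9 or 10 of 10 supporting cell markers had reads, with medians from 8.39 CPM in apical OHCs to 1033 CPM in apical IHCs. The part of RNA from other cells in the values below was not tested. In 3 cells, basal OHC cells 1 and 2 and basal IHC cell 2, the nuclear ribosomal RNA model CT010467.1 took from 26.1% to 29% of all counts, and results that rest on them are also given without them.

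Part of the mitochondrial genome exists a second time in the mouse nuclear genome, and the sequences show how close that copy is. In the annotation of GRCm38, the build the submitters' processing notes name, 7 pseudogene models on the minus strand of chromosome 1 (chr1:24611535-24616184) match the mitochondrial stretch chrM:6394-11042, which is 4649 bases long. Their aligned bases were all identical to the mitochondrial ones, and the ends of 2 models, Gm29216 and Gm28438, lie outside the alignment. That stretch holds 11 of the 37 genes wholly and mt-Co1 and mt-Nd4 in part. As counts may turn on this likeness, the first 60 bases of 3 protein-coding genes are printed beside their nuclear copies, with capitals marking differences. They are mt-Co2 (chrM:7013-7072) and Gm28661 (chr1:24615506-24615565), mt-Atp6 (chrM:7927-7986) and Gm10925 (chr1:24614592-24614651), and mt-Nd3 (chrM:9459-9518) and Gm28438 (chr1:24613060-24613119), read 5′ to 3′ on the strand of the gene.
mt-Co2: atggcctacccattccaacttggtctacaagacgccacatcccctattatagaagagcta
Gm28661: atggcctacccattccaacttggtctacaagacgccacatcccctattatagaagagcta
mt-Atp6: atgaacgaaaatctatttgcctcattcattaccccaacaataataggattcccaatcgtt
Gm10925: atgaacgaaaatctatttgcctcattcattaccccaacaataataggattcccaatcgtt
mt-Nd3: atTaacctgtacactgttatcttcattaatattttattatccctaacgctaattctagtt
Gm28438: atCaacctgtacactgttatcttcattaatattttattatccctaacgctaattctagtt
The mt-Co2 and mt-Atp6 pairs did not differ in these bases. The mt-Nd3 pair differed by 1 base, T3C, counted from 1 at the first base of mt-Nd3 with the mitochondrial base first, which lies in the unaligned start of Gm28438. Gm10222, the model that matches mt-Nd4l, was added to the other 6 after the values were seen.

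Transfer RNAs from the same stretch and from outside it are printed next, because their counts set them apart, with the anticodon in capitals. The genes mt-Td, mt-Tk, mt-Tg and mt-Tr, for aspartate, lysine, glycine and arginine (chrM:6942-7011, chrM:7700-7764, chrM:9391-9458 and chrM:9808-9875), had no read in any of the 139 cells. A further transfer RNA wholly in the stretch, mt-Ts1 (chrM:6870-6938), is not printed and had 54 counts, with reads in 30 cells. The genes mt-Tp and mt-Tm, for proline and methionine (chrM:15356-15422 on the minus strand and chrM:3845-3913 on the plus strand), had the most.
mt-Td: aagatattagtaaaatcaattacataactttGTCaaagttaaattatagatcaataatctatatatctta
mt-Tk: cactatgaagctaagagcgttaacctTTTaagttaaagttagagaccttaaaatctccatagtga
mt-Tg: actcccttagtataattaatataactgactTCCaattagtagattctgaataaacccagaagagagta
mt-Tr: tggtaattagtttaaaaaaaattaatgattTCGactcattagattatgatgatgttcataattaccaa
mt-Tp: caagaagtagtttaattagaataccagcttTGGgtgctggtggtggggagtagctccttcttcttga
mt-Tm: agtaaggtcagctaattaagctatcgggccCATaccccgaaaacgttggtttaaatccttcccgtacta
The annotation holds no gene model over the nuclear copies of mt-Td, mt-Tk, mt-Tg and mt-Tr. Whether reads of these 4 transfer RNAs were lost to the nuclear copy was not tested.

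Levels differed by orders of magnitude between members. Over all cells pooled and per kilobase of gene, mt-Rnr2, the large ribosomal RNA (chrM:1094-2675), led with 8298 CPM per kb. It was followed by mt-Co1 (chrM:5328-6872) with 6225 CPM per kb, mt-Nd1 (chrM:2751-3707) with 3900.3 and the small ribosomal RNA mt-Rnr1 (chrM:70-1024) with 3860.5 CPM per kb. Then came mt-Nd2 with 2202, mt-Nd4 with 1756, mt-Nd6 with 1488, mt-Cytb with 1340.0 and mt-Nd5 with 576 CPM per kb. These 9 genes held 99.9% of all mitochondrial counts. The 6 other protein-coding genes, mt-Co2, mt-Co3, mt-Atp6, mt-Atp8, mt-Nd3 and mt-Nd4l, lay between 0.584 CPM per kb for mt-Atp8 and 14.1 CPM per kb for mt-Atp6. They make up 26.3% of the protein-coding length and held 0.104% of the protein-coding mitochondrial counts.

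The 6 low genes are those that lie wholly in the stretch copied on chromosome 1. Cut into windows of 43 bases, the length in the label's description of the sequencing, mt-Co2 shared 100% of its windows with another annotated gene, mt-Co3 99.9%, mt-Atp6 99.5%, mt-Nd4l 98.8% and mt-Nd3 98.04%. mt-Atp8 shared 0.617%, and the model it shares them with, Gm10925, covers only its end. Of the genes with high levels, mt-Nd4 shared 62.4% and mt-Co1 55.1%, and 29.1% of the mt-Co1 windows were shared with the chromosome 1 models. The others shared from 0% in mt-Nd1, mt-Nd6 and mt-Rnr1 to 10.5% in mt-Nd5. The sources used here do not say how reads that fit several places were counted, so low expression of these 6 genes and loss of their reads in counting cannot be told apart.

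**Figure D1:**
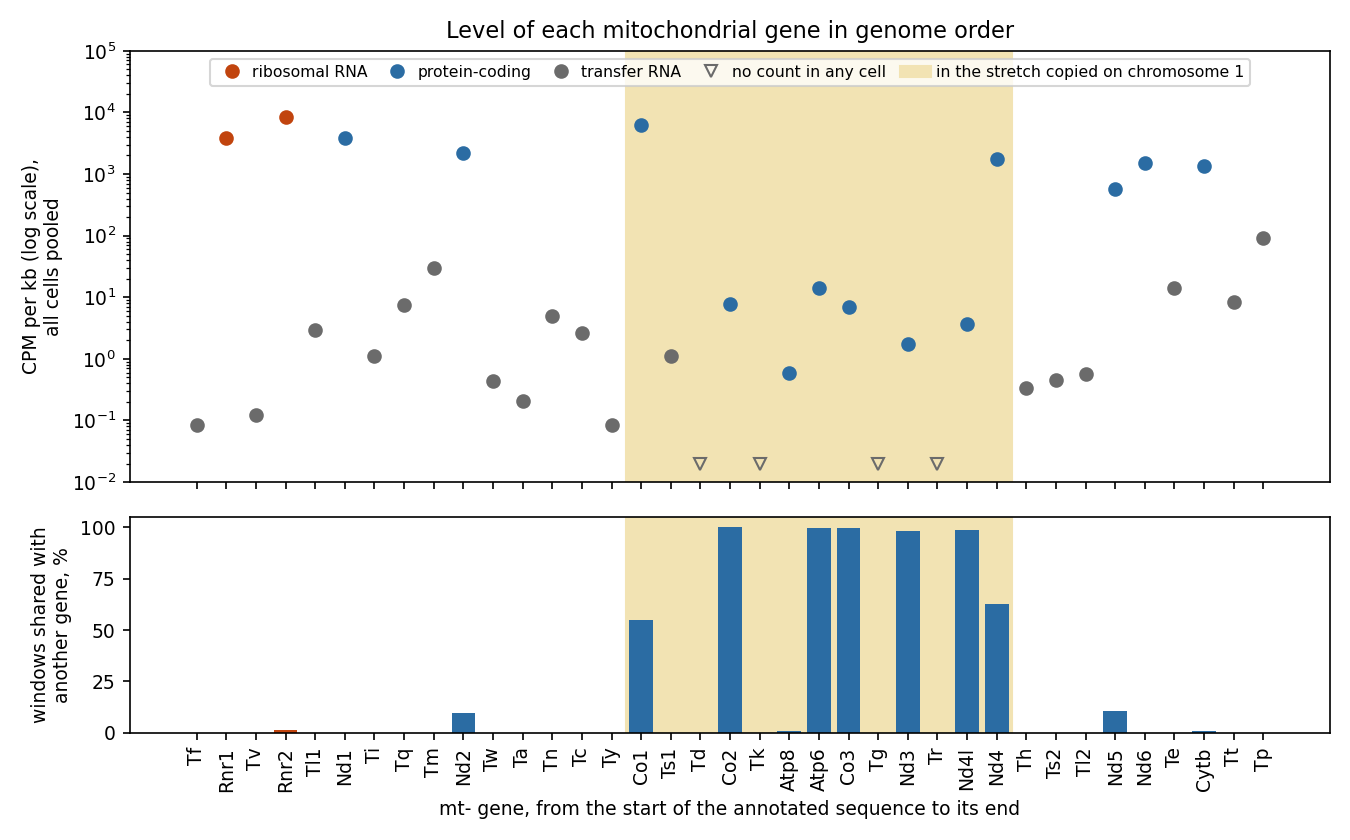
Level of each of the 37 mitochondrial genes in CPM per kb over all 139 cells pooled, on a log scale (top), and the percentage of its windows of 43 bases that occur in another annotated gene (bottom), in genome order. Within the shaded stretch only the partly covered mt-Co1 and mt-Nd4 exceed 14.1 CPM per kb, and the 4 transfer RNAs with no count lie inside it. The transfer RNA mt-Ts1 also lies inside it, with 1.11 CPM per kb.

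Counts on the nuclear models themselves were of the same order as those of the low genes. Gm10925 held 6777 counts and mt-Atp6 6763 counts over all cells, Gm28661 held 5129 and mt-Co2 3759, Gm28437 held 7069 and mt-Co3 3857, and Gm10222 held 1025 and mt-Nd4l 764. The ratio of Gm10925 to mt-Atp6 counts stayed between 0.848 in middle IHCs and 1.10 in apical IHCs over the 6 groups. For mt-Nd3 the copy held more, 4474 counts on Gm28438 and 428 on mt-Nd3. Gm29216, the copy of the end of mt-Co1, held 45391 counts, which was 0.669 per 100 counts of mt-Co1, and this ratio ran from 0.593 in basal IHCs to 1.20 in basal OHCs. Gm28439, the copy of the start of mt-Nd4, held 0.297 counts per 100 of mt-Nd4, between 0.269 in apical OHCs and 0.347 in basal OHCs.

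Summed over the 37 genes, the mitochondrial share of counts was higher in OHCs than in IHCs in each region when cells were pooled. Among apical OHCs the share ran from 2.34% to 14.8% with a median of 5.10%, and the pooled share was 5.47%, against cells from 0.380% to 11.3% with a median of 3.43% and a pooled share of 3.71% in apical IHCs. Middle OHCs ran from 0.0857% to 18.1% with a median of 3.08% and pooled to 5.79%, against from 0.234% to 7.99% with a median of 2.90% and 3.03% pooled in middle IHCs. The 8 basal OHCs ran from 1.06% to 16.9% with a median of 2.56% and pooled to 3.85%, against from 0.125% to 15.99% with a median of 1.94% and 2.504% pooled in basal IHCs. The cells of OHC and IHC groups overlapped over most of their ranges in all 3 regions.

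The ratio of the pooled shares, OHC over IHC, was 1.47 for apical, 1.91 for middle and 1.54 for basal cells. The 95% interval of the apical ratio from counting error alone was 1.47 to 1.48, which does not cover the spread between cells or animals. On the log2 scale the ratios were 0.56, 0.94 and 0.62. Ratios of the median cells were 0.57, 0.09 and 0.40 log2 in the same order, and the middle value is the lowest of the 3. Leaving out basal OHC cell 2 alone gave 0.17 log2 in the base. Without the 3 cells rich in CT010467.1 the basal ratio was 0.31 log2. Within cells numbered above 100 the ratios were 0.36, 1.002 and 1.77 log2, and within cells numbered up to 100 they were 1.15, 0.44 and 1.004 log2. A higher share through more mitochondrial RNA and one through less of all other RNA cannot be told apart.

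Along the spiral, the pooled share was lower in the base than in the apex, with ratios of 0.704 in OHCs and 0.674 in IHCs. This order was that of the cells numbered up to 100, where base over apex was -1.40 log2 in OHCs and -1.25 log2 in IHCs. Among cells numbered above 100 it was 1.55 log2 in OHCs, where the base has only 2 cells, both rich in CT010467.1, and 0.14 log2 in IHCs. The mitochondrial share of a cell had a Spearman correlation with its total count of -0.06 over the 139 cells, -0.15 over the 58 cells with numbers above 100, -0.27 over the 81 cells with numbers up to 100. Its correlation with the CT010467.1 share was 0.47 over the 139 cells, 0.32 over the 58 cells with numbers above 100, 0.36 over the 81 cells with numbers up to 100. The 3 cells richest in CT010467.1 had mitochondrial shares of 16.9% and 14.8% in basal OHC cells 1 and 2 and 15.99% in basal IHC cell 2. Both measures are shares of the same total, and the part of ribosomal RNA content in the mitochondrial share was not tested.

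**Figure D2:**
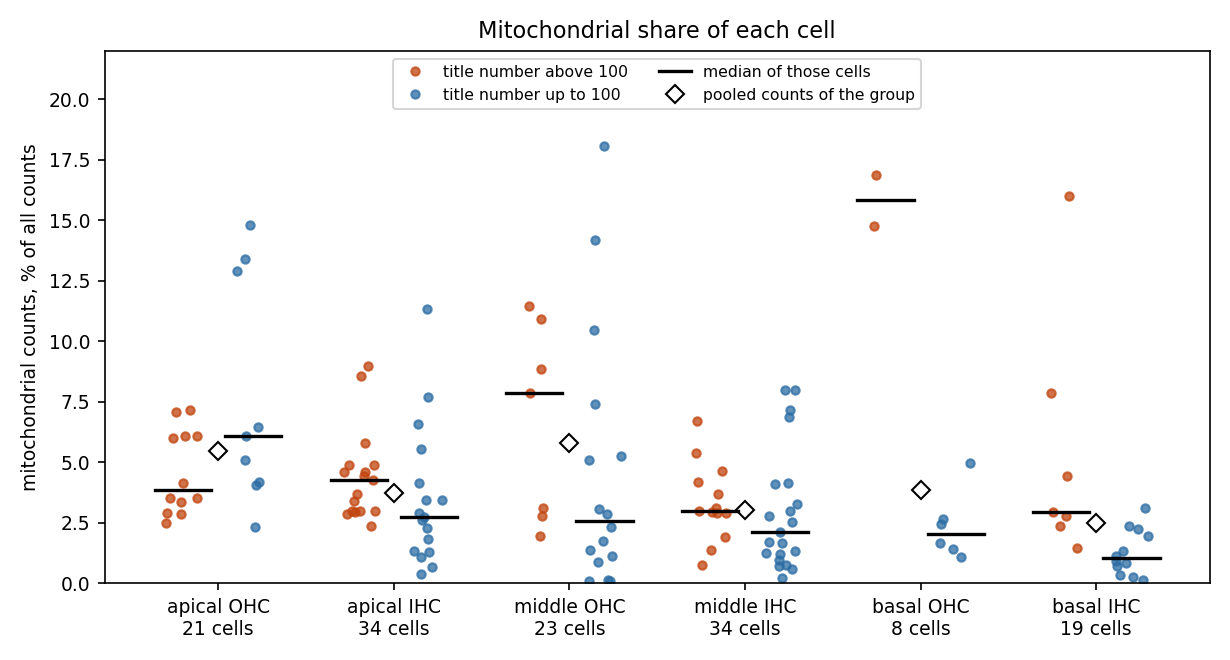
Mitochondrial counts as a percentage of all counts in each cell, for the 6 groups, with cells numbered above 100 left of those numbered up to 100; bars are medians of these cells and diamonds the pooled share of the group. Pooled shares lie between 2.504% in basal IHCs and 5.79% in middle OHCs, while single cells reach 18.1%.

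The ribosomal RNAs mt-Rnr1 (12S, small subunit) and mt-Rnr2 (16S, large subunit) carried 43.9% of all mitochondrial counts. Pooled, it was 53.8% in apical OHCs and 50.3% in apical IHCs, 35.9% in middle OHCs and 40.6% in middle IHCs, and 54.2% in basal OHCs and 33.6% in basal IHCs. The median over cells was 43.2% in apical OHCs numbered above 100 and 80.9% in those numbered up to 100, and 35.95% in apical IHCs numbered above 100 and 84.6% in those numbered up to 100. It was 34.2% in middle OHCs numbered above 100 and 80.4% in those numbered up to 100, and 21.7% in middle IHCs numbered above 100 and 63.8% in those numbered up to 100. In each of these 4 groups the cells numbered above 100 had the lower median. The base did not share that order, with medians of 65.97% in basal OHCs numbered above 100 and 51.004% in those numbered up to 100, and 25.4% in basal IHCs numbered above 100 and 17.9% in those numbered up to 100. In apical IHCs the cells did not overlap, with a highest value of 49.01% among those numbered above 100 and a lowest of 49.2% among those numbered up to 100. In all, ribosomal RNA was over 50% of mitochondrial counts in 12 of 58 cells numbered above 100 and in 59 of 81 numbered up to 100.

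The 2 kinds of cell differed in protein-coding counts and within the ribosomal pair. Protein-coding mitochondrial genes took 3.01% of all counts in cells numbered above 100 and 0.907% in those numbered up to 100, whereas ribosomal RNAs took 1.55% and 1.88% in the same order. mt-Rnr1 had 5039 CPM in cells numbered above 100 and 1762 CPM in those numbered up to 100, while mt-Rnr2 had 10413 and 16992 CPM. The ratio of mt-Rnr1 to mt-Rnr2 counts had a median of 0.450 over cells numbered above 100 and of 0.113 over the rest. In each of the 6 groups the median ratio was higher among cells numbered above 100, from 0.350 against 0.166 in apical OHCs to 0.639 against 0.0400 in middle OHCs. mt-Rnr1 exceeded mt-Rnr2 in 9 of 139 cells. The cells numbered above 100 were also deeper, with a median of 7187430 counts against 3186040, and the ribosomal part of a cell correlated with its total count at -0.51 over the 139 cells, -0.23 over the 58 cells with numbers above 100, -0.41 over the 81 cells with numbers up to 100 (Spearman). The part of depth in this difference was not tested.

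**Figure D3:**
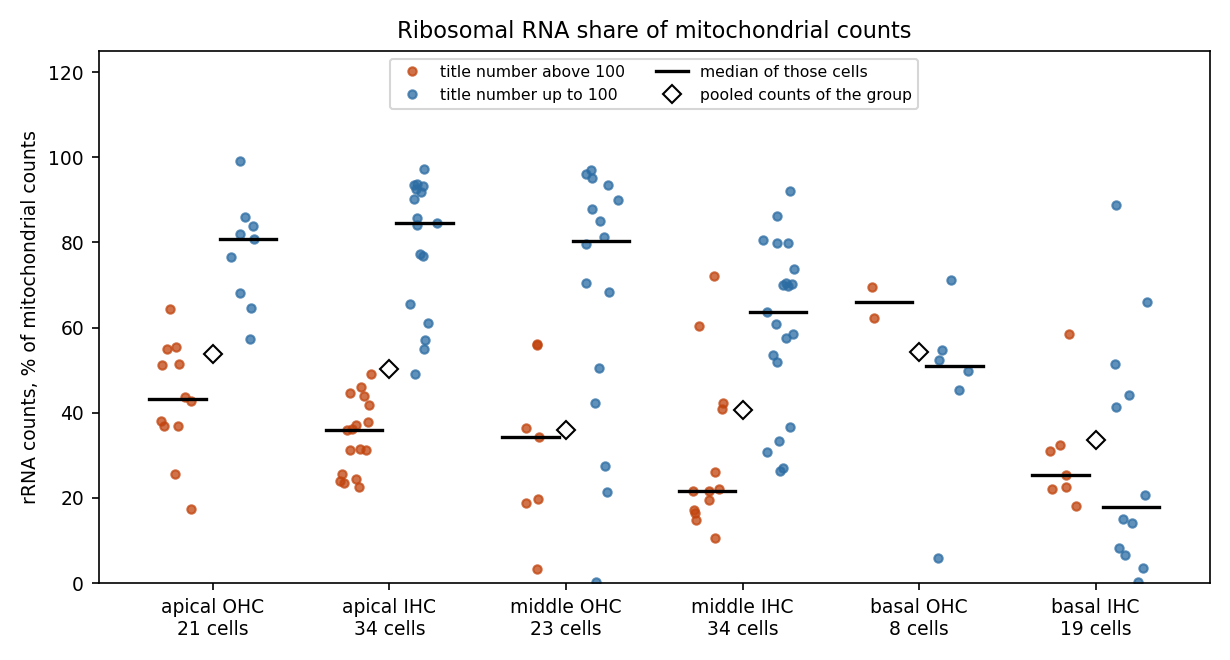
Counts of mt-Rnr1 and mt-Rnr2 as a percentage of all mitochondrial counts in each cell, for the 6 groups, with cells numbered above 100 left of those numbered up to 100; bars are medians of these cells and diamonds the pooled value of the group. In the apical and middle groups the cells numbered above 100 lie lower, and in the base they do not.

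The make-up of the protein-coding counts differed between regions and between the title numbers. Over all cells, mt-Co1 held 44.9% of protein-coding mitochondrial counts, mt-Nd1 17.4%, mt-Nd4 11.3%, mt-Nd2 10.7%, mt-Cytb 7.15%, mt-Nd5 4.90% and mt-Nd6 3.60%. The 7 complex I genes together held 69.3% in apical OHCs and 74.96% in apical IHCs, 20.5% in middle OHCs and 38.9% in middle IHCs, and 79.7% in basal OHCs and 41.6% in basal IHCs. In the same order of groups, cells numbered above 100 gave 67.2%, 74.1%, 18.4%, 23.5%, 49.3% and 22.4%. Cells numbered up to 100 gave 88.2%, 84.0%, 68.4%, 87.4%, 89.1% and 80.1%, so the low pooled values were those of cells numbered above 100. Shares of protein-coding counts are given per cell only for the 134 cells with at least 1000 such counts.

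Among cells numbered above 100, mt-Nd1 led in the apex and mt-Co1 in the middle and base. mt-Nd1 was the largest protein-coding gene in 22 of 29 apical cells and in 0 of 29 middle and basal cells, and mt-Co1 in 3 of 29 apical cells and 27 of 29 middle and basal cells. The mt-Co1 share of these cells ran from 7.09% to 33.9% in the apex (median 16.03%), from 19.4% to 87.3% in the middle (median 66.1%) and from 19.6% to 87.7% in the base (median 64.2%). Of the 29 middle and basal cells, 27 lay above the highest apical cell, and 2, middle IHC cell 7 and basal OHC cell 1, lay within the apical range. The mt-Nd1 share had medians of 31.5% in apical, 9.51% in middle and 8.93% in basal cells. Depth differed too, with median total counts of 6352190, 10532500 and 1307930 in apical, middle and basal OHCs numbered above 100. In the IHCs they were 4820410, 7554360 and 7120620. The mt-Co1 share correlated with total count at 0.46 over these 58 cells, 0.12 over 76 cells numbered up to 100 and 0.49 over all 134 (Spearman). The part of depth in the regional difference was not tested.

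Levels showed the same order in IHCs. Among cells numbered above 100, mt-Co1 pooled to 6981, 36127 and 20047 CPM in apical, middle and basal OHCs, and to 4289.7, 16441 and 19679.8 CPM in apical, middle and basal IHCs. mt-Nd1 pooled to 8254, 4723 and 9899 CPM in the same OHC groups and to 8672, 2533 and 3326 CPM in the IHC groups. In IHCs mt-Co1 was thus lowest and mt-Nd1 highest in the apex. Apical and basal cells did not overlap, whereas middle cells overlapped with both, with mt-Co1 from 1845 to 9750.2 CPM in apical, 1266 to 42123 CPM in middle and 10322 to 36775 CPM in basal IHCs. The 2 basal OHCs are those rich in CT010467.1, so no basal OHC above 100 is free of that load. mt-Nd2 and mt-Nd4, further complex I genes, were likewise lower in the middle than in the apex, with median shares of 13.5% and 14.3% in the apex and 2.96% and 5.53% in the middle. mt-Cytb, the complex III gene, had medians of 9.11%, 6.83% and 10.7% from apex to base.

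Among cells numbered up to 100, pooled mt-Co1 was again lowest in the apex, but mt-Co1 led few cells. It pooled to 1118, 1756 and 1547 CPM in apical, middle and basal OHCs and to 390.5, 839 and 1634 CPM in apical, middle and basal IHCs, and 1 cell held from 28.6% to 64.8% of these counts. mt-Co1 led in 1 of 24 apical cells and 4 of 52 middle and basal cells, with median shares of 4.20% in apical, 5.08% in middle and 6.35% in basal cells. mt-Nd4 led in 24 and mt-Nd2 in 22 of the 76 cells, mt-Nd6 in 11, mt-Nd1 in 8, mt-Co1 in 5, mt-Nd5 in 4 and mt-Cytb in 2. The mt-Nd2 share ran from 0.0790% to 75.2% of protein-coding counts between middle cells. The Spearman correlation of the mt-Co1 and mt-Nd1 shares was 0.05 over the 134 cells, -0.75 over the 58 cells with numbers above 100, -0.05 over the 76 cells with numbers up to 100. Shares of one total are not independent of each other.

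**Figure D4:**
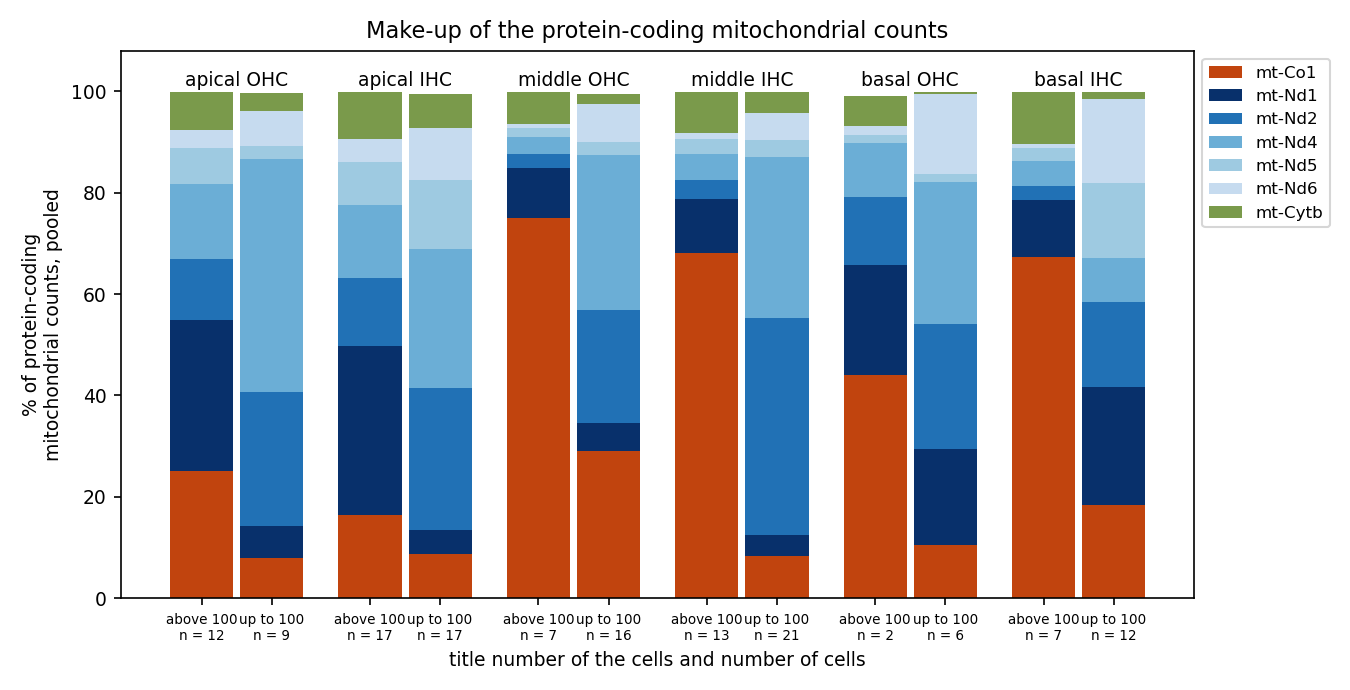
Percentage of pooled protein-coding mitochondrial counts held by each of the 7 abundant genes, for the 6 groups split by title number, with cells numbered above 100 left. mt-Co1 holds 75.1% in middle OHCs and 68.2% in middle IHCs numbered above 100, against 29.005% and 8.41% in those numbered up to 100.

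**Figure D5:**
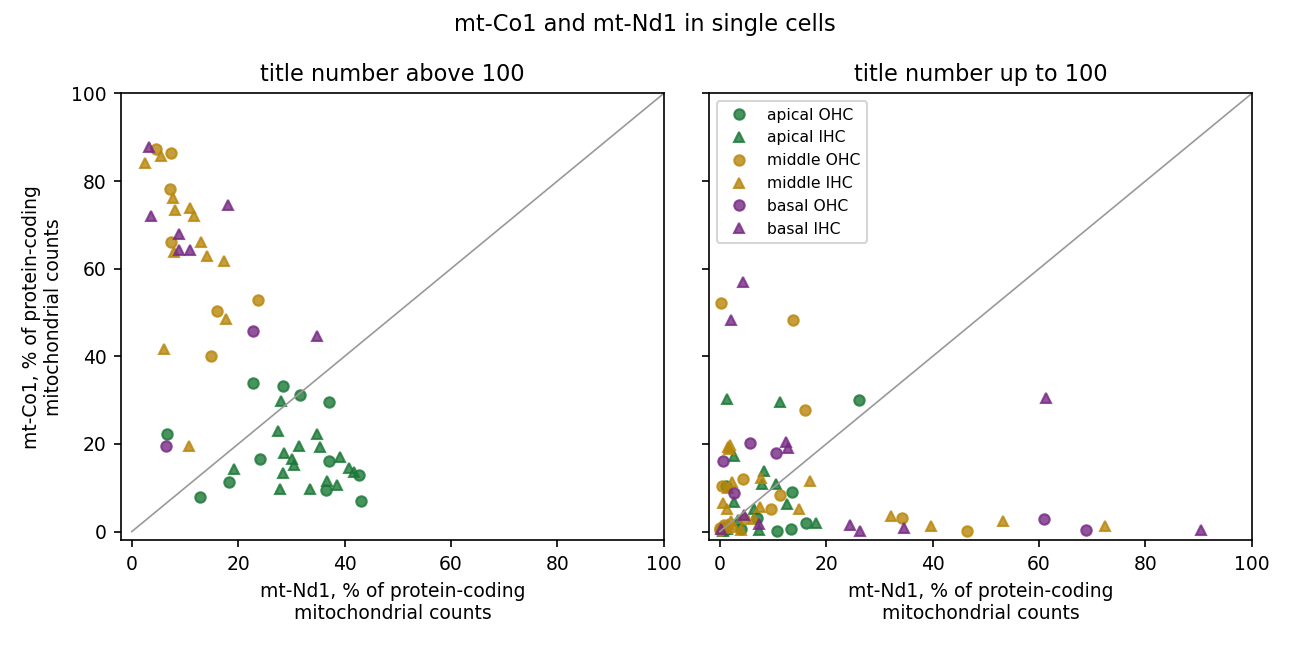
Shares of mt-Nd1 (horizontal) and mt-Co1 (vertical) in the protein-coding mitochondrial counts of each cell with at least 1000 such counts, for cells numbered above 100 (left) and up to 100 (right); colour gives the region and shape the cell type, and the line marks equal shares. On the left, apical cells and middle or basal cells form separate clouds apart from 2 cells; on the right, most cells lie low on both axes.

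Many cells drew most of their protein-coding mitochondrial counts from 1 gene. One gene held over 50% in 22 of 58 cells numbered above 100, where it was mt-Co1 in every such cell, and in 47 of 76 numbered up to 100, where the gene varied. The most uneven were middle OHC cell 10, where mt-Nd4 held 97.8% of 17717 protein-coding mitochondrial counts, middle OHC cell 18, where mt-Nd6 held 93.004% of 2816 protein-coding mitochondrial counts, basal IHC cell 19, where mt-Nd1 held 90.5% of 52540 protein-coding mitochondrial counts and apical IHC cell 24, where mt-Nd5 held 90.3% of 16492 protein-coding mitochondrial counts. All 4 were numbered up to 100, and their total counts ran from 792158 to 6823486. Such cells weigh on pooled values: 1 cell held 67.9% of the mt-Nd2 counts and 55.5% of the mt-Nd5 counts of basal IHCs, and 69.8% of the mt-Nd4 counts of basal OHCs. mt-Nd6 is the only protein-coding gene on the minus strand, opposite the end of mt-Nd5, and the sources used here do not say whether counting used the strand. It had a read in every cell, from 17.1 to 4129 CPM in apical IHCs and from 129.7 to 6464 CPM in basal OHCs.

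Gene by gene, 14 of the 37 members passed a filter of 5 CPM in 1 or more groups after scaling with the TMM method, and ratios are log2 of (CPM + 1). All 9 abundant genes passed, with mt-Co2, mt-Co3, mt-Atp6, mt-Nd4l and mt-Tp, and the other 23 did not. For OHCs against IHCs in the apex, 2 of 14 were 2-fold or more higher and 0 lower, against 28.6% higher and 32.4% lower among all 15016 genes that passed, and the median ratio of the 14 was 0.19 against -0.02 for all genes. In the middle 3 of 14 were 2-fold or more higher and 1 lower, against 20.7% and 29.8% of all genes, with medians of 0.47 and -0.07. In the base 9 of 14 were 2-fold or more higher and 2 lower, against 16.1% and 48.9% of all genes, with medians of 1.99 and -0.89. For base against apex in OHCs 5 of 14 were 2-fold or more higher and 2 lower, against 17.4% and 47.6%, with medians of 0.21 and -0.72. For base against apex in IHCs 1 of 14 were 2-fold or more higher and 8 lower, against 26.5% and 31.5%, with medians of -1.05 and -0.02. Comparisons that involve basal OHCs share these 8 cells, and apical and basal groups each enter more than 1 comparison. Without the 3 cells rich in CT010467.1, the count of members higher in basal OHCs than in basal IHCs was 6 in place of 9, and lower 5 in place of 2. The basal median of the 14 was then -0.12 log2, against -1.11 for all genes. That of the 9 abundant genes was 0.89 with and 1.06 without these cells. For base against apex in OHCs the median of the 14 was -1.503 without them, against -1.07 for all genes. mt-Nd4l passed the filter only through basal OHCs, so its count as higher there was fixed by the filter, and without it 8 of 13 were higher and 2 lower in the base. The same holds for base against apex in OHCs, where 4 of 13 were higher and 2 lower without it, with a median of 0.04. Of the 9 abundant genes, 4 were higher and 2 lower in basal OHCs than in basal IHCs. For base against apex in OHCs, 1 of these 9 was higher and 2 lower. Within cells numbered above 100 the filter was applied anew and passed 16 members, of which 12 were higher and 1 lower in the base. The all-gene median was then -1.75. Within cells numbered up to 100 it passed 15 members, of which 4 were higher and 3 lower, with an all-gene median of -0.14. Base against apex in OHCs gave 9 of 16 higher and 2 lower above 100, and 4 of 15 higher and 8 lower up to 100. The all-gene medians of that comparison were -1.35 above 100 and 0 up to 100. The all-gene median for the base was -0.37 under size factors, against -0.89 under TMM. Shares of all genes past 2-fold are given for all cells under TMM only. The counts of members without the 3 cells or within either kind of title number thus have no such background.

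Of single genes, mt-Rnr1 had 6428 CPM in apical OHCs against 3209 CPM in apical IHCs and 5496 CPM in middle OHCs against 2025 CPM in middle IHCs, with scaled ratios of 1.09 and 1.20 log2. Within cells numbered above 100 these were 1.05 and 1.4996, and within those numbered up to 100 0.36 and -0.74, so the middle ratio changed sign. Its basal ratio was 0.74 log2, and -1.77 without the 3 cells rich in CT010467.1. mt-Rnr2 had ratios of 0.66, 0.34 and 2.17 log2 in apex, middle and base. mt-Co1 had 5937 CPM in apical OHCs and 2912 CPM in apical IHCs, 27129.5 CPM in middle OHCs and 9675 CPM in middle IHCs, and 3241 CPM in basal OHCs and 8467 CPM in basal IHCs. The scaled OHC to IHC ratios of mt-Co1 were 1.11, 1.25 and -0.93 log2 from apex to base. The basal ratio was 0.04 with size factors in place of TMM, so its sign depends on the scaling, and under TMM it was 0.36 among cells numbered above 100 and -0.29 among those numbered up to 100. The middle value rested in part on 1 cell, which held 42.8% of the mt-Co1 counts of middle OHCs.

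The complex I genes were higher in basal OHCs than in basal IHCs with 1 exception among the abundant ones. The ratios were 0.89 for mt-Nd1, 2.13 for mt-Nd2, 2.48 for mt-Nd4 and 1.57 for mt-Nd6, and -1.52 for mt-Nd5. Within cells numbered above 100 they were 1.91, 3.33, 2.06, 2.01 and 0.17, and within cells numbered up to 100 they were 0.21, 1.08, 2.20, 0.45 and -2.67. mt-Nd2 went the other way in the middle, with 1319 CPM in middle OHCs and 2377 CPM in middle IHCs and a ratio of -1.09 log2. There it was 0.59 among cells numbered above 100 and -2.58 among the rest. In the apex the ratios of these 5 genes lay between 0.13 for mt-Nd5 and 0.75 for mt-Nd4. For base against apex in IHCs they were -1.04 for mt-Nd1, -1.05 for mt-Nd2, -1.35 for mt-Nd4, -0.48 for mt-Nd5 and 0.23 for mt-Nd6, while mt-Co1 was 1.65. mt-Co1 and mt-Nd4 had these signs in both kinds of cell when pooled, mt-Co1 with 1.89 above 100 and 2.05 up to 100 and mt-Nd4 with -1.66 above 100 and -0.67 up to 100. Among cells numbered up to 100, however, 1 cell held 60.2% of the mt-Co1 counts of basal IHCs. The median cell there had 126 CPM of mt-Co1 in basal and 293 CPM in apical IHCs, opposite in order to the pooled ratio. The other 4 had opposite signs in the 2 kinds of cell: mt-Nd1 had -1.69 above 100 and 3.25 up to 100, mt-Nd2 -2.49 above 100 and 0.23 up to 100, mt-Nd5 -1.94 above 100 and 1.10 up to 100 and mt-Nd6 -2.48 above 100 and 1.66 up to 100.

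mt-Cytb, which encodes cytochrome b of complex III, had 1797 CPM in apical OHCs and 1672 CPM in apical IHCs, 2332 CPM in middle OHCs and 1301 CPM in middle IHCs, and 304 CPM in basal OHCs and 1231 CPM in basal IHCs. The scaled ratios were 0.19, 0.60 and -1.56 log2. They were -0.05, 0.75 and 0.19 within cells numbered above 100 and -0.12, -2.67 and -1.41 within those numbered up to 100, with opposite signs in the middle and base. Cells of basal OHCs and basal IHCs overlapped, from 15.5 to 8952 CPM (median 81.4) and from 15.001 to 5768 CPM (median 334). With equal weight per cell the basal ratio was 1.19, opposite in sign to the pooled one, and without the 3 cells rich in CT010467.1 it was -3.67.

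Of the ATP synthase genes and the remaining complex I and IV genes, mt-Atp8 shared 0.617% of its sequence windows with the nuclear copies. The others shared at least 98.04%. Whether reads of these genes were lost to the copies was not tested. The likeness also touches mt-Co2, mt-Co3, mt-Atp6 and mt-Nd4l, the 4 of them that entered the counts and medians of the 14. mt-Atp6 had 14.3 CPM in apical OHCs and 20.9 CPM in apical IHCs, 11.2 CPM in middle OHCs and 3.46 CPM in middle IHCs, and 8.15 CPM in basal OHCs and 2.39 CPM in basal IHCs. mt-Atp8 had 84 counts over all cells. mt-Co2 and mt-Co3 pooled to 16.5 and 11.4 CPM in basal OHCs, where 1 cell held 93.6% and 93.6% of their counts, against 2.28 and 2.20 CPM in basal IHCs. mt-Nd4l reached 5 CPM only in basal OHCs, with 11.3 CPM, of which 1 cell held 79.2%. mt-Nd3 stayed at or below 1.54 CPM in every group.

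The 22 transfer RNAs together held 0.0297% of mitochondrial counts, 8010 counts in all. mt-Tp held 54.4% of these and mt-Tp and mt-Tm together 72.7%, with 4354 and 1468 counts. Then came mt-Te with 679, mt-Tt with 389, mt-Tq with 376, mt-Tn with 252, mt-Tl1 with 153 and mt-Tc with 123 counts, and 10 transfer RNAs had from 4 to 54 counts. Transfer RNAs of both strands were among the higher ones. For the 4 with no count, 3 counts over all cells would be 0.00425 CPM, which is the limit that a count of 0 allows as far as reads could be placed there. mt-Tp is read from the minus strand, next to mt-Tt and beyond mt-Cytb. It had 5.92 CPM in apical OHCs and 12.6 CPM in apical IHCs, 3.42 CPM in middle OHCs and 2.20 CPM in middle IHCs, and 18.4 CPM in basal OHCs and 4.86 CPM in basal IHCs. In basal OHCs 1 cell held 97.7% of its counts, and 54 of 139 cells had none. mt-Tm had reads in 43 cells, with 4.77 CPM in apical OHCs and 4.63 CPM in apical IHCs, 0.864 CPM in middle OHCs and 0.0800 CPM in middle IHCs, and 0.105 CPM in basal OHCs and 1.59 CPM in basal IHCs.

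Nuclear partners of these genes were described from 10 lists of 147 genes. Of 70 nuclear subunits of complexes I, III and IV and the ATP synthase, all passed the filter, and the shares of all genes given above serve as background. For OHCs against IHCs in the apex, 18 (25.7%) were 2-fold or more higher and 10 (14.3%) lower, against 28.6% and 32.4% of all genes. The median was 0.23 log2. In the middle 12 (17.1%) were 2-fold or more higher and 8 (11.4%) lower, against 20.7% and 29.8% of all genes. In the base 15 (21.4%) were 2-fold or more higher and 30 (42.9%) lower, against 16.1% and 48.9% of all genes. The medians were 0.32 log2 in the middle and -0.59 log2 in the base. For base against apex in OHCs 17 (24.3%) were 2-fold or more higher and 36 (51.4%) lower, against 17.4% and 47.6% of all genes. In IHCs 15 (21.4%) were 2-fold or more higher and 20 (28.6%) lower, against 26.5% and 31.5% of all genes. The medians were -1.04 log2 in OHCs and -0.15 log2 in IHCs. The nuclear complex I list had medians of 0.07, 0.36 and -1.29 log2 for OHCs against IHCs from apex to base. The median of all genes in the base was -0.89. The nuclear complex IV list had medians of 0.59, 0.03 and 0.21.

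Single nuclear subunits varied widely, often through few cells. Ndufs1, a core subunit of complex I, had 16.1, 37.4 and 1.64 scaled CPM in apical, middle and basal OHCs, against 66.98, 215 and 101.3 in IHCs of the same regions, and was 2-fold or more lower in OHCs in all 3. Ndufa7, an accessory subunit, was also 2-fold or more lower in OHCs in all 3 regions, with 1.20 scaled CPM in apical OHCs and 45.7 in apical IHCs. It had at most 4.54 scaled CPM in any OHC group and passed the filter only through IHCs. Its place as lower in OHCs was thus in part fixed by the filter. Atp5j2, a subunit of the ATP synthase, was 2-fold or more higher in OHCs in all 3, with 59.2, 24.5 and 747 scaled CPM in apical, middle and basal OHCs against 26.1, 10.2 and 54.6 in IHCs. In basal OHCs 1 cell held 92.05% of its counts, and 1 cell held 99.4% of the Ndufs1 counts of apical OHCs. Cox7b, a subunit of complex IV, had the highest mean OHC to IHC ratio of its list, with 410.2 scaled CPM in apical OHCs against 24.6 in apical IHCs. Uqcrb and Uqcr10, subunits of complex III, had the lowest and the highest mean ratio of theirs, -2.36 and 1.83 log2.

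Of 77 nuclear genes for the upkeep, transcription, processing, stability and translation of the mitochondrial genome and its RNA, 61 passed the filter. For OHCs against IHCs in the apex, 23 (37.7%) were 2-fold or more higher and 23 (37.7%) lower, against 28.6% and 32.4% of all genes. The median was -0.02 log2. In the middle 16 (26.2%) were 2-fold or more higher and 28 (45.9%) lower, against 20.7% and 29.8% of all genes. In the base 7 (11.5%) were 2-fold or more higher and 38 (62.3%) lower, against 16.1% and 48.9% of all genes. The medians were -0.65 log2 in the middle and -1.62 log2 in the base. For base against apex in OHCs 8 (13.1%) were 2-fold or more higher and 31 (50.8%) lower, against 17.4% and 47.6% of all genes. In IHCs 17 (27.9%) were 2-fold or more higher and 22 (36.1%) lower, against 26.5% and 31.5% of all genes. The medians were -1.55 log2 in OHCs and -0.11 log2 in IHCs. Members 2-fold or more lower in OHCs in all 3 regions included Tfb2m, a factor of mitochondrial transcription initiation, with reads in 2 of 21 apical OHCs and 9 of 34 apical IHCs, and 0.0199 scaled CPM in apical OHCs and 18.1 in apical IHCs. They also included Dguok, a deoxyguanosine kinase of the mitochondrial nucleotide supply, with 1.85 scaled CPM in middle OHCs and 25.8 in middle IHCs, and Gfm2, a factor of mitochondrial ribosome recycling, with 0.0796 in apical OHCs and 22.8 in apical IHCs. For Tfb2m, 1 cell held 98.9% of the counts of middle IHCs and 1 cell 97.2% of those of middle OHCs. Its basal values were only 0.0996 scaled CPM in OHCs and 1.28 in IHCs. For Dguok, 1 cell held 69.7% of the counts of middle IHCs. Gfm2 had reads in 6 of 21 apical OHCs and 15 of 34 apical IHCs, and 1 cell held 82.8% of its counts in apical IHCs. Tfb2m and Gfm2 had at most 3.80 and 1.37 scaled CPM in any OHC group and passed the filter only through IHCs. Their place as lower in OHCs was thus in part fixed by the filter. By comparison, mt-Rnr2, mt-Cytb and mt-Nd6 had reads in all 139 cells and the other abundant members in at least 137.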

How the data were processed

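The deposited table holds raw read counts per gene, with Ensembl identifiers, for 139 single cells. Per the submitters' processing notes, the authors used Trimmomatic, HISAT2 and featureCounts (Subread 1.4.6) with GRCm38; the notes list these names without roles. The sources used here do not state strand, molecular identifiers or how reads with several placements were handled. Identifiers were matched to symbols with the GENCODE M21 annotation (55154 of 55335 matched; lines without a symbol held 0.00885% of counts). Counts were pooled per group, scaled with TMM (edgeR 4.0.16) and compared as log2((CPM + 1) ratios) of genes with at least 5 CPM in 1 or more groups; 2-fold is a rule of size, not a test. Poisson and binomial 95% intervals cover counting error only. Total counts per cell were 71027 to 13576942. Shares within protein-coding counts used cells with at least 1000. For thinning, 125 cells were reduced to 582635 counts. DESeq2 1.42.0 gave alternative size factors. Tables used Python 3.11.15, numpy 2.4.6, pandas 2.3.3 and scipy 1.17.1, with R 4.3.3. The ratio step was checked on simulated pooled counts with set fold changes, drawn with Poisson error from a shared pooled profile. The simulation had no single cells, so it does not cover ratios that rest on few cells. Nuclear genes were named from the extremes of each list and those 2-fold the same way in all 3 regions with at least 10 CPM in the higher group. The members and lists were chosen with earlier results of these data known.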

Additional observations from a re-analysis of the deposited data

Results flagged for a closer look

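Among the 8 basal OHCs, 4 of 10 measures held a cell set apart from the others by a wide gap. Chance gives such a gap in about 1 of 20 groups of independent, normally distributed values, and these measures are skewed shares of the same totals, so that rate does not carry over to them. In basal OHC cell 8, ribosomal RNA was 6.01% of mitochondrial counts, against 45.3% to 71.1% in the other cells. In basal OHC cell 6, mt-Nd5 held 13.8% of protein-coding mitochondrial counts, against 0.115% to 3.89% in the others. In basal OHC cell 1, mt-Cytb held 14.1%, against 0.1001% to 5.36% in the others. In basal OHC cell 2, mt-Co1 held 45.8%, against 0.357% to 20.3% in the others. Cells 1 and 2 are those numbered above 100 and rich in CT010467.1.

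The OHC to IHC ratio of mt-Nd2 was 2.13 log2 in the base and -1.09 in the middle, opposite in sign and 3.22 apart. Base over apex was 2-fold or more higher in OHCs and 2-fold or more lower in IHCs for 3 members. It was 1.37 in OHCs and -1.33 in IHCs for mt-Co2, 2.70 apart. It was 1.03 and -1.48 for mt-Co3, 2.503 apart, and 1.95 and -1.11 for mt-Tp, 3.07 apart. For these 3 genes, 1 cell held 93.6%, 93.6% and 97.7% of the basal OHC counts. Without the 3 cells rich in CT010467.1, base over apex in OHCs was -2.29, -1.82 and -1.96 for these genes, the same sign as in IHCs. None of these differences was tested, since each group is 1 sample.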

How the results depend on the processing

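The 5 log2 ratios of the mitochondrial share are given in the order OHC over IHC in apex, middle and base, then base over apex in OHCs and IHCs, where the pooled values were 0.56, 0.94, 0.62, -0.51 and -0.57. With the mean of the cells they were 0.58, 0.76, 1.04, -0.0485 and -0.5004, and with their median 0.57, 0.0872, 0.40, -0.996 and -0.82. With CT010467.1 left out of the total they were 0.58, 0.97, 0.64, -0.48 and -0.55, and with the 13 protein-coding genes alone 0.45, 1.04, 0.0842, -0.52 and -0.15. Without the deepest cell of each group they were 0.59, 0.73, 0.95, -0.34 and -0.70, and without cells under 500000 counts 0.55, 0.94, 0.60, -0.52 and -0.57. Cells numbered above 100 gave 0.36, 1.002, 1.77, 1.55 and 0.14, cells numbered up to 100 1.15, 0.44, 1.004, -1.40 and -1.25, and the mean of both 0.77, 0.77, 1.62, 0.52 and -0.33, so base over apex was positive above 100 and negative up to 100 in both cell types. Without the 3 cells rich in CT010467.1, an alternative chosen after seeing the data, they were 0.56, 0.94, 0.31, -0.998 and -0.74. Leaving out each cell in turn gave 0.47 to 0.61, 0.74 to 1.05, 0.17 to 0.84, -0.96 to -0.29, -0.76 to -0.48, with the lowest basal value without basal OHC cell 2.

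The filter was applied anew in each setting, so 14, 15 or 16 members entered, and 37 without the filter. The share of all genes past the same size is given above for the main setting only, so the counts under other settings have no such background. Members 2-fold or more higher and lower, in the same order of comparisons, numbered 2 and 0, 3 and 1, 9 and 2, 5 and 2, 1 and 8. They numbered 2 and 0, 5 and 0, 9 and 3, 3 and 3, 1 and 8 without scaling, 4 and 0, 4 and 0, 11 and 1, 7 and 3, 1 and 5 with DESeq2 size factors, 2 and 0, 3 and 1, 10 and 3, 5 and 4, 1 and 11 without the filter, 2 and 0, 3 and 1, 9 and 2, 5 and 2, 1 and 9 with a pseudocount of 0.1 CPM, 1 and 0, 4 and 0, 12 and 0, 10 and 1, 1 and 6 with equal weight per cell, 1 and 0, 6 and 0, 9 and 1, 3 and 3, 1 and 8 after thinning, 1 and 0, 2 and 1, 11 and 2, 5 and 3, 1 and 9 without the deepest cells, 1 and 1, 2 and 0, 12 and 1, 9 and 2, 1 and 9 above 100, 4 and 1, 1 and 7, 4 and 3, 4 and 8, 4 and 4 up to 100 and 2 and 0, 3 and 1, 6 and 5, 2 and 8, 1 and 8 without the 3 cells. The ribosomal part of mitochondrial counts, in the order apical OHC, apical IHC, middle OHC, middle IHC, basal OHC, basal IHC, was 53.8%, 50.3%, 35.9%, 40.6%, 54.2%, 33.6% pooled, 55.4%, 49.01%, 56.2%, 52.7%, 53.5%, 22.7% for the median cell, 55.7%, 50.3%, 46.2%, 42.6%, 54.7%, 35.6% without the deepest cells, 45.6%, 34.1%, 26.4%, 26.2%, 69.2%, 32.98% above 100 and 80.5%, 86.2%, 83.5%, 63.2%, 46.02%, 34.8% up to 100. The cause of these differences was not tested. Shares of single protein-coding genes moved under every choice of title number and cell weight tried. No paired analysis was possible because each group counted as 1 sample and no label pairs cells. Counts of 0 and shares in cells under 1000 protein-coding mitochondrial counts are limited by depth.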
